A study of Mus musculus with 27 samples.

Results

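The hippocampus of neonatal mice was followed from postnatal day 4 (P4) to postnatal day 10 (P10) with a PCR array of synaptic plasticity genes. The pools were chosen by their labels as the hippocampus pools of P4 and P10, which gave 6 of the 27 pools of the study, 3 at each age. The mice were Swiss Webster, an outbred strain, born to germ-free dams. In the germ-free group (GF) the pups received sterile PBS. In the conventionalized group (CONV) they also received PBS, and a complex microbiota reached them through the dam, which was given fecal slurry of specific pathogen free donors, and through used bedding. In the Bifidobacterium group (BIF) pups and dams were given 4 species, B. dentium, B. longum subsp. infantis, B. breve and B. bifidum, from P1. Each group lived in an isolator of its own, and each pool held RNA of 5 male mice.

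Neurons of the rodent hippocampus form most of their excitatory synapses in the weeks after birth. Over this period the NMDA receptor, a glutamate receptor that lets calcium enter the neuron, exchanges part of its Grin2b subunits for Grin2a, which shortens its currents. Immediate early genes are transcribed within minutes of neuronal activity, and several of their products, such as Arc and the Egr factors, act on synapses or on other genes of plasticity.

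The deposited file holds 1 threshold cycle (CT), the PCR cycle at which the signal crosses a set line, for each gene and pool. The protocol names 4 replicate primer assays on a plate, and how they relate to the deposited CT is not stated. A level here is the mean CT of the reference genes B2m, Gapdh, Gusb and Hsp90ab1 minus the CT of the gene. It is on the log2 scale, and an increase of 1 stands for a doubling of template. The median CT of the 84 pathway genes lay between 24.8 and 25.64 over the 6 pools, and 37 of their 504 CTs were above 30. A single value, that of Tnf in the GF pool of P10, sat at the detection limit of CT 35. Tnf, which encodes an inflammatory cytokine made by microglia among other cells, was therefore not tested. Its CTs were 33.53 (GF), 32.51 (CONV) and 32.85 (BIF) at P4, and 32.76 (CONV) and 32.95 (BIF) at P10. The control for genomic DNA was at 35 in each of the 6 pools.

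The tissue label was compared with genes that mark the forebrain and the cerebellum. Camk2a, a kinase of forebrain excitatory neurons, lay between 0.99 and 3.42 in the 9 hippocampus pools of the 3 ages and between -4.38 and -1.67 in the 9 cerebellum pools. Gabra5, a GABA receptor subunit rich in the hippocampus, lay between -0.51 and 0.04 in hippocampus and between -8.99 and -2.76 in cerebellum. Grm4, a glutamate receptor of cerebellar granule cells, lay between -5.48 and -4.52 in hippocampus and between -4.27 and 1.95 in cerebellum. None of these 3 genes had overlapping ranges in the 2 regions, whereas the ranges of Camk2a overlapped between hippocampus and cortex (-0.30 to 3.61). The ranges of Grin2c, -8.47 to -5.10 in hippocampus and -7.53 to -0.935 in cerebellum, overlapped. Those of Reln, -3.52 to -0.97 in hippocampus and -1.2 to 0.035 in cerebellum, overlapped as well.

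Which synaptic genes changed in the hippocampus between P4 and P10 was asked by comparing the P10 pool of each treatment with its P4 pool. Of the 83 genes tested, 26 rose (31.3%) and 24 fell (28.9%) at an adjusted p under 0.05 in limma, which makes 50 genes (60.2%), and 33 did not pass. The risen genes included 3 of the 5 NMDA receptor subunits, 7 of the 9 immediate early genes, the kinase Camk2a, and Bdnf. The 5 genes of cell adhesion and guidance fell, among them Reln and Ncam1. In RNA of whole tissue, fewer cells of a type and less RNA per cell cannot be told apart.

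The median change of the 83 genes was 0.01 on the log2 scale, and the median SE of a change was 0.118. Of the 50 genes that passed, 48 had a change of the same sign in each of the 3 pairs. A test on these same changes favours such genes, so this count is no separate support. The exceptions were Pcdh8 with 0.04 in the BIF pair and Nos1 with 0.01 in the CONV pair. In 27 genes (32.5%) the 3 P10 pools lay above the 3 P4 pools, and in 24 (28.9%) they lay below. At the 1.5-fold threshold of the study, 12 genes (14.5%) were higher and 4 (4.82%) lower at P10 in each pair.

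The reference genes did not keep a constant distance from each other, with a mean CT change from P4 to P10 of -0.70 for B2m, -0.54 for Gapdh, -0.16 for Hsp90ab1, -0.04 for Gusb and 0.37 for Actb. The choice among them moved the mean change of every gene by one amount. This was -0.18 with Gapdh alone, 0.15 with the 5 genes including Actb, 0.11 without B2m and -0.22 with the median pathway CT. The spread between pairs changed with the reference as well, so calls did not follow this amount alone. Crem changed by -0.57 with Gapdh alone and lost its call, against -0.39 with the 4 genes, where it passed. With the 4 genes, 52% of the calls were rises. This share was 34.5% with Gapdh alone (10 higher, 19 lower), 75.7% with 5 genes (28 and 9), 69.4% without B2m (25 and 11) and 33.3% with the pathway median (16 and 32). A total of 10 genes rose and 9 fell under all 5 references, and 0 genes rose under one and fell under another. A change of a named gene from P4 to P10 that passed, and is not given below as passing under all 5, lost its call under at least 1 of them. Medians of gene groups are given below minus the median of the 83 genes, which is the same under each reference.

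The p-values rest on the spread between the 3 treatment pairs, not between mice, and limma moves the spread of each gene toward that of genes of similar level. Genes whose pairs disagree in sign, such as Nos1 and Pcdh8, can therefore pass. With a pair left out the spread of other genes weighs more, so a pass there says little about agreement between pairs. The CONV pool of P4 ran on the plate of the P10 cortex pools, the BIF pool of P4 on that of the P10 cerebellum pools, and the other 4 pools on 1 plate. So age and plate cannot be told apart in those 2 pairs, and without the GF pair 22 genes rose and 14 fell. With plate as a random block over the 27 pools, 21 genes rose and 19 fell, and among the genes named here the calls of Fos, Cebpd, Nfkbib, Ppp1cc, Adcy8, Adam10, Plat and Nos1 were lost. The pools of P20 ran on another plate than those of P10, so levels of P20 given below differ from those of P10 in plate as well as in age.

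Of the 5 NMDA receptor subunits, 3 rose and 2 did not pass. Grin1, the obligatory subunit, rose together with Grin2a and Grin2c, and the group median lay 0.70 above that of the 83 genes. Grin2c, which yields receptors with weak magnesium block, had levels of -8.34 (GF), -8.47 (CONV) and -8.05 (BIF) at P4 and of -5.58, -6.15 and -5.99 at P10. The groups did not overlap, and the rise of 2.38 (SE 0.186, adjusted p = 3.94e-05), or 5.21-fold, exceeded that of every other gene tested. Grin2a had levels of -2.78, -2.96 and -2.89 at P4 and -1.39, -1.86 and -1.81 at P10, in the same order of treatments. Its pools did not overlap either, and it rose by 1.19 (SE 0.119, adjusted p = 0.000119), or 2.29-fold. Grin1 went from -0.63, -1.03 and -0.64 to 0.05, -0.16 and -0.05, a rise of 0.71 (SE 0.105, adjusted p = 0.000764). The GF pool of P10 was the highest of the 6 for each of these 3 genes, which rose under all 5 references.

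Grin2b, the subunit that prevails in the newborn brain, had levels of -0.57, -0.44 and -0.21 at P4 and of -0.45, -0.46 and -0.45 at P10. The P10 levels lay inside the range of P4, and the change of -0.04 (SE 0.110, adjusted p = 0.745) did not pass and took a positive sign with the 5 references and without B2m. Grin2d, a subunit of interneurons and the early brain, changed by -0.20 (adjusted p = 0.241), and its pools overlapped. Its change was -0.33 without the CONV pair and -0.0675 without the BIF pair, and passed in neither case. With the pathway median as reference Grin2d passed as a fall of 0.41. In the pools of P20, which were not tested here, Grin2a stood at -0.84 (GF), -1.06 (CONV) and -0.96 (BIF), and Grin2d at -2.93, -2.85 and -2.93.

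**Figure D1:**
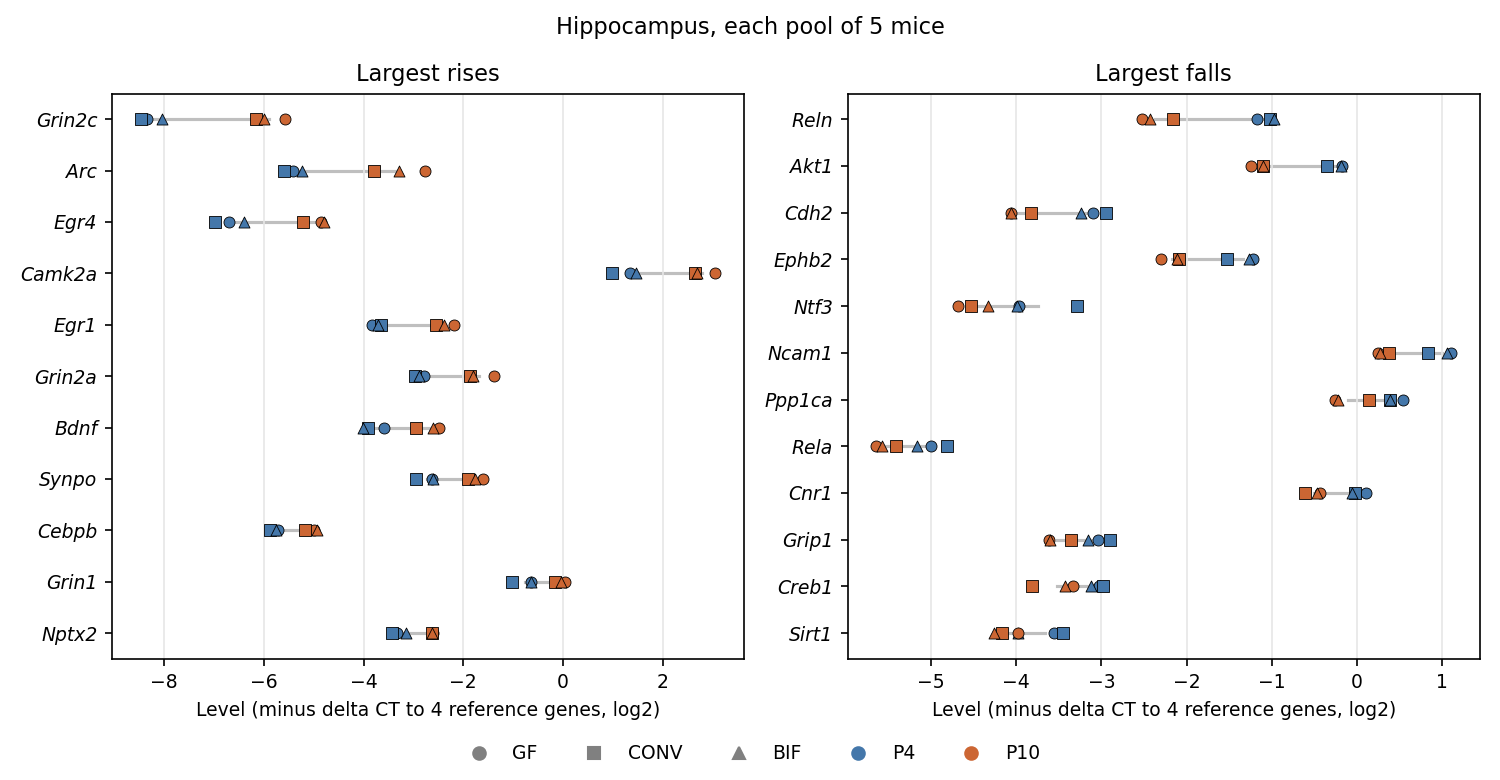
Levels of genes among the largest rises and falls in each hippocampus pool, as minus delta CT on the log2 scale, with P4 in blue, P10 in orange and a symbol for each treatment. Grin2c lay between -8.47 and -8.05 at P4 and between -6.15 and -5.58 at P10, and grey lines join the means of the ages.

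Immediate early genes rose in 7 of 9 cases, 0 fell and 2 did not pass, with a median 0.59 above that of the 83 genes. With other references the number that rose was 3 (Gapdh alone), 7 (5 genes), 6 (without B2m) and 5 (pathway median), and 0 fell under any. Arc, whose protein drives the removal of AMPA receptors from synapses, had levels of -5.42 (GF), -5.60 (CONV) and -5.24 (BIF) at P4 and -2.77, -3.78 and -3.30 at P10. The pools of the 2 ages were well apart, with the GF pool of P10 highest, and Arc rose by 2.14 (SE 0.163, adjusted p = 3.94e-05), or 4.41-fold. The zinc finger factor Egr4 went from -6.70, -6.98 and -6.40 to -4.84, -5.21 and -4.79 and rose by 1.75 (SE 0.116, adjusted p = 2.45e-05). Egr1, a factor of the same family needed for lasting potentiation of synapses, went from -3.82, -3.64 and -3.71 to -2.19, -2.55 and -2.39. Its ages did not overlap, and the rise was 1.35 (SE 0.129, adjusted p = 9.91e-05). Arc, Egr4 and Egr1 rose under all 5 references.

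Smaller rises were found for the AP-1 member Fos (0.58, adjusted p = 0.00492), the nuclear receptor Nr4a1 (0.60, adjusted p = 0.00306) and Egr3 (0.50, adjusted p = 0.0162). The rise of Fos did not pass with plate as a random block, and that of Egr3 did not pass without the GF pair (0.34) or the BIF pair (0.53). The P4 pools of Egr3 reached from -3.36 to -2.82 and overlapped those of P10, from -3.13 to -2.37. Junb, another AP-1 member, rose by 0.92 (SE 0.312, adjusted p = 0.0388), with a mean CT of 30.9 and pair changes of 1.54 (GF), 0.63 (CONV) and 0.60 (BIF), and it did not pass without the GF (0.61) or CONV pair (1.07). Egr2 changed by 0.32 (adjusted p = 0.275) and Jun by 0.23 (adjusted p = 0.226), both with overlapping pools and a negative change in the BIF pair, without which Jun passed as a rise (0.43). The change of Jun was 0.125 without the GF pair and 0.135 without the CONV pair, and did not pass. That of Egr2 was 0.145 without the CONV pair and 0.58 without the BIF pair, and did not pass.

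Many immediate early genes carry in their promoters the cAMP response element, which binds the factor CREB, and since 7 of them rose together their promoters were searched for its core, the letters TGACG and on the other strand CGTCA. Promoters of RefSeq genes on GRCm38.p6, windows of 300 bases around the gene start, were available for 55 of the 84 array genes. The core occurred in 20.8% of all 32851 promoters, and the full palindrome TGACGTCA in 1.79%. Among the array genes with a promoter, the palindrome was found in no immediate early gene and in none that rose or fell. Of the 6 immediate early genes with a promoter, 5 held the core, among them Egr4, Fos, Junb and Nr4a1, which rose, and Egr2, whereas Jun held none. Counting a gene when any of its promoters held the core, it was found in 9 of 11 genes that rose, 6 of 19 that fell and 10 of 24 that did not pass. Several genes have more than one promoter, so shares of genes and shares of promoters are different quantities. The promoters of Egr4 (chr6:85513540-85513839, minus strand, 2 matches), Fos (chr12:85473640-85473939, plus strand, 2 matches) and Nr4a1 (chr15:101266596-101266895, plus strand, 4 matches) are printed from 5′ to 3′ because each is an immediate early gene that rose and holds more than 1 match, with the core in capitals. A match is a description of the letters in this window.
Egr4: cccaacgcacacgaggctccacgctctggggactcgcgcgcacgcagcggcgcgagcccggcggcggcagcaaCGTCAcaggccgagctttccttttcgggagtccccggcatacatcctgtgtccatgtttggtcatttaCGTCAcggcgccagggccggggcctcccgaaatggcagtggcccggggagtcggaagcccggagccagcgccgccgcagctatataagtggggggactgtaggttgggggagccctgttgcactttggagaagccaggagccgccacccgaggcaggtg
Fos: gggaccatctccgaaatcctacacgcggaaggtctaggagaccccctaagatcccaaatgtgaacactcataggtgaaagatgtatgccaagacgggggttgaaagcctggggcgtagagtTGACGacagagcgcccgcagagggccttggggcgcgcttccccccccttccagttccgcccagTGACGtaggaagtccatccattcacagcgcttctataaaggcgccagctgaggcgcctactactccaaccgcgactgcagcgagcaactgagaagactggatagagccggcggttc
Nr4a1: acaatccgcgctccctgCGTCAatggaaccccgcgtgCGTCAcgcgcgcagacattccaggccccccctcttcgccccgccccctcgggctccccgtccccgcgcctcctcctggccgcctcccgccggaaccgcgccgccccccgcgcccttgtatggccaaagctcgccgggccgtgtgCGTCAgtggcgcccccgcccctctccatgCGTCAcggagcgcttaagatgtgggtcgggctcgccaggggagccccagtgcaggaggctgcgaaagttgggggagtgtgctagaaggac

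Of the neurotrophins and their receptors, 2 rose, 1 fell and 3 did not pass. Bdnf, the growth factor released at active synapses, had levels of -3.59 (GF), -3.91 (CONV) and -4.02 (BIF) at P4 and -2.49, -2.94 and -2.61 at P10. Each P10 pool lay above each P4 pool, and Bdnf rose by 1.16 (SE 0.119, adjusted p = 0.000125), or 2.24-fold, also under the 4 other references. Ntf3, which encodes the growth factor neurotrophin-3, went from -3.96, -3.29 and -3.99 to -4.68, -4.53 and -4.34. The ages did not overlap, the CONV pool of P4 was the highest, and Ntf3 fell by 0.77 (SE 0.162, adjusted p = 0.00517), a call that was lost with the 5 references and without B2m. The BDNF receptor Ntrk2 changed by 0.10 (adjusted p = 0.367) and the receptor Ngfr by -0.20 (adjusted p = 0.462), and the sign of Ntrk2 was negative with Gapdh alone and with the pathway median, whereas with the 5 references it passed as a rise of 0.24. Ntf5, which encodes neurotrophin-4, had a mean CT of 32.7 and pair changes of 0.02, 1.31 and 2.01, with a mean of 1.11 (SE 0.634, adjusted p = 0.168). Ntf5 passed as a rise without the GF pair (1.66) and in the fit without a variance trend, and its change was 0.66 without the BIF pair.

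Of the AMPA receptor subunits, which carry fast excitatory currents, 2 rose, 1 fell and 1 did not pass, and none of these calls was kept under all references. Gria1 rose by 0.26 (adjusted p = 0.00942) and Gria3 by 0.33 (adjusted p = 0.0483), Gria4 fell by 0.42 (adjusted p = 0.0160), and Gria2, which makes the channel tight to calcium, changed by 0.34 (adjusted p = 0.0634). None of the 3 calls was kept without the GF pair, where Gria1 changed by 0.24, Gria3 by 0.27 and Gria4 by -0.43, whereas Gria2 passed as a rise without the GF (0.41) or CONV pair (0.47) and changed by 0.14 without the BIF pair. The group median lay 0.29 above that of the 83 genes, and the number of subunits that rose was 0 with Gapdh alone and with the pathway median. Of the 7 metabotropic glutamate receptors, which act through G proteins, 0 rose and 6 did not pass, of which Grm4 changed by 0.055 to 0.49 with 1 pair left out and passed as a rise without the BIF pair. Grm3, a receptor of glia and neurons, fell by 0.39 (adjusted p = 0.0199), with levels of -1.20, -1.24 and -1.31 at P4 and -1.57, -1.73 and -1.62 at P10, a fall that was not called with the 5 references, without B2m, or without the GF (-0.40) or CONV pair (-0.34).

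**Figure D2:**
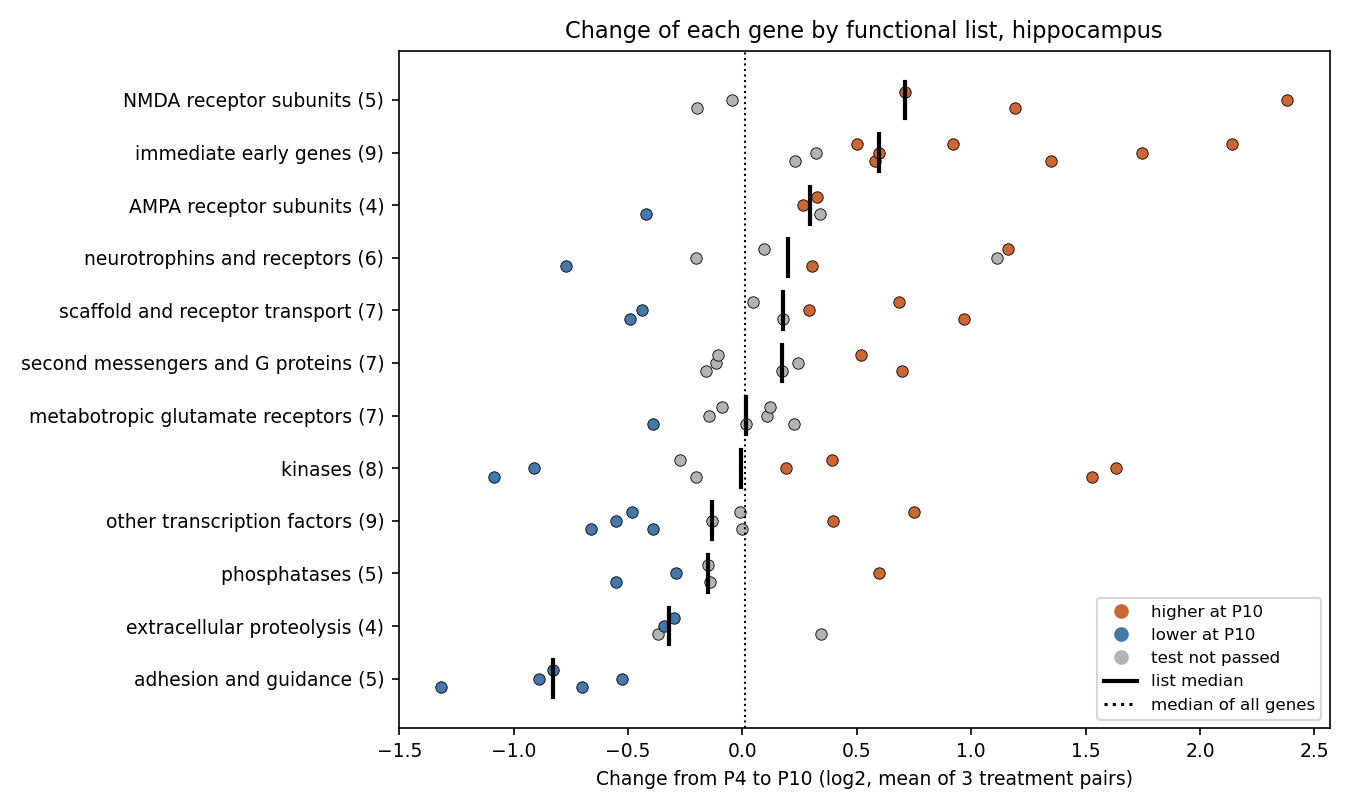
Change from P4 to P10 of each gene tested, in log2 units as the mean of 3 treatment pairs, by functional list with the list median as a black bar. The dotted line is the median of the 83 genes, 0.01, and the change of Grin2c is 2.38 and that of Reln -1.32.

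Kinases moved in both directions, with 4 higher, 2 lower and 2 not past the test. Camk2a, the calcium-dependent kinase of long-term potentiation, had levels of 1.34 (GF), 0.99 (CONV) and 1.46 (BIF) at P4 and 3.06, 2.64 and 2.68 at P10. The pools of the ages were apart by more than the spread within either, and it rose by 1.53 (SE 0.0923, adjusted p = 2.34e-05), or 2.89-fold. Prkca, a protein kinase C, rose by 0.39 (adjusted p = 0.0203), and did not pass with Gapdh alone (0.21), with the pathway median (0.18), or without the GF (0.39) or CONV pair (0.32). Akt1, a kinase of growth factor signalling, fell from -0.17, -0.35 and -0.19 to -1.25, -1.10 and -1.10. No pool of P10 reached a P4 pool, and the change was -0.91 (SE 0.111, adjusted p = 0.000281), or 1.88-fold lower. Camk2a and Akt1 passed in the same direction under all 5 references.

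Genes of adhesion and guidance fell in 5 of 5 cases, with a median 0.84 below that of the 83 genes, and with the 5 references or without B2m 4 of them passed. Reln encodes reelin, which Cajal-Retzius cells and later interneurons secrete to position neurons. Its levels were -1.17 (GF), -1.02 (CONV) and -0.97 (BIF) at P4 and -2.53, -2.16 and -2.43 at P10, and -3.36, -3.46 and -3.52 in the pools of P20. The ages did not overlap, and Reln fell by 1.32 (SE 0.119, adjusted p = 7.72e-05), or 2.49-fold, from P4 to P10. Cdh2, the N-cadherin of synaptic junctions, went from -3.10, -2.95 and -3.24 to -4.07, -3.82 and -4.07 and fell by 0.89 (SE 0.0981, adjusted p = 0.000177). Ncam1, the neural cell adhesion molecule, went from 1.11, 0.84 and 1.06 to 0.26, 0.38 and 0.27 and fell by 0.70 (SE 0.0963, adjusted p = 0.000552). The pools did not overlap for either gene. The receptor tyrosine kinase Ephb2, which guides axons and spines, fell by 0.83 (SE 0.134, adjusted p = 0.00129), with pair changes of -1.08 (GF), -0.56 (CONV) and -0.84 (BIF). The protocadherin Pcdh8 fell by 0.53 (adjusted p = 0.0484), with overlapping pools. Its change was -0.27 without the CONV pair, where it did not pass, and -0.81 without the BIF pair, so the count of 5 rests on a call that 1 pair decides. Reln, Cdh2, Ncam1 and Ephb2 fell under all 5 references.

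**Figure D3:**
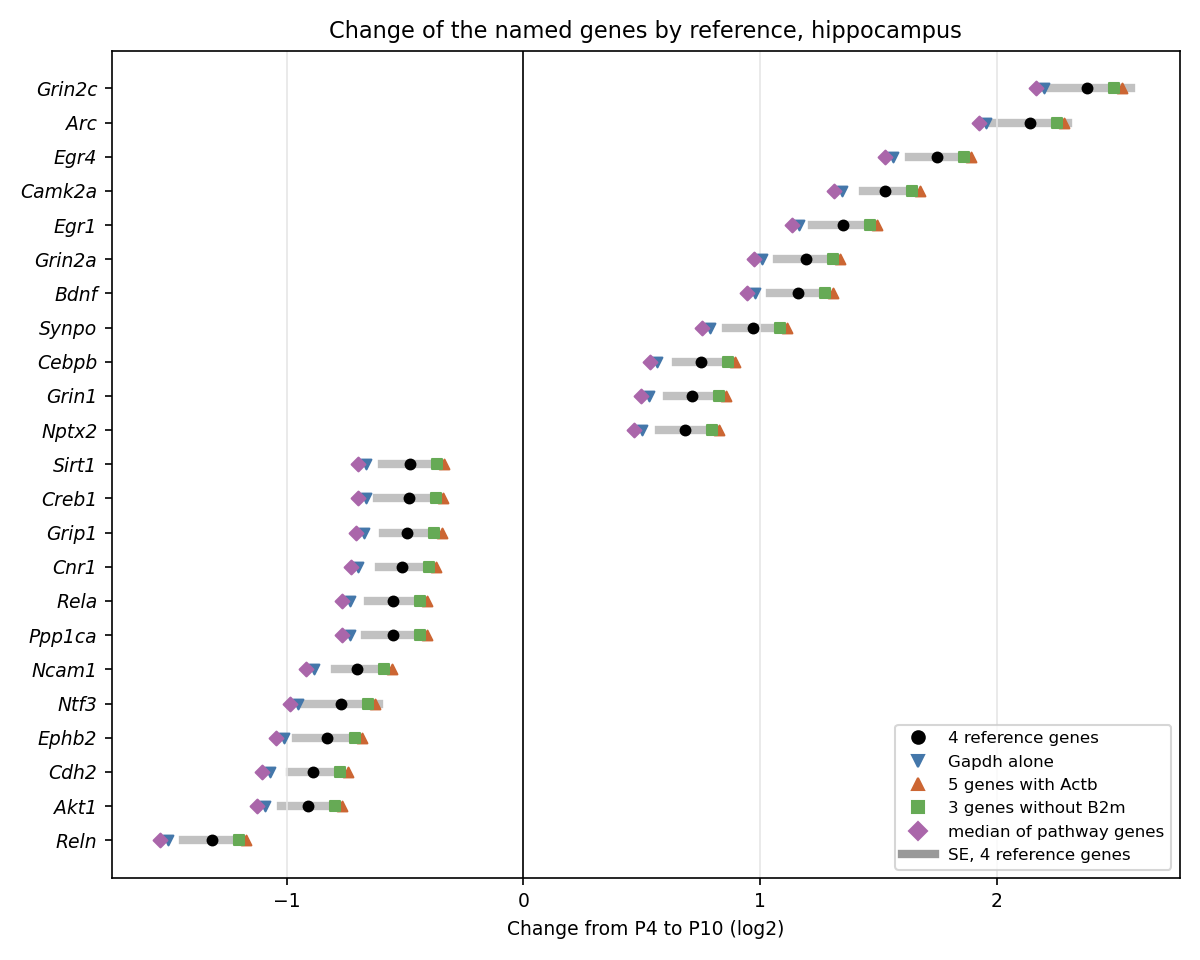
Change from P4 to P10 of genes among the largest rises and falls under 5 references, in log2 units, with the SE of the 4-gene reference as a grey bar. No gene shown crosses 0, and a reference moves each gene by one amount, from -0.22 to 0.15.

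Of the 7 genes of the postsynaptic scaffold and receptor transport, 3 rose, 2 fell and 2 did not pass. Synpo encodes synaptopodin, the actin-binding protein of the spine apparatus, and its levels went from -2.62, -2.95 and -2.61 to -1.60, -1.91 and -1.76. Its ages did not overlap, and it rose by 0.97 (SE 0.111, adjusted p = 0.000208), or 1.96-fold, under all 5 references. Nptx2, a secreted pentraxin that gathers AMPA receptors, rose by 0.68 (adjusted p = 0.00129), and Dlg4, which encodes the scaffold PSD-95, by 0.29 (adjusted p = 0.0128). Neither passed with Gapdh alone (0.50 and 0.11), and with the pathway median Dlg4 changed by 0.077 and did not pass. Grip1, a scaffold that binds AMPA receptors, fell by 0.49 (adjusted p = 0.00469), and this fall passed under all 5 references but not without the GF pair (-0.45). The group median lay 0.17 above that of the 83 genes, and as a plain change it turned from 0.18 to -0.04 with the pathway median and to -0.0033 with Gapdh alone.

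Among the 9 genes listed as other transcription factors, 2 rose, 4 fell and 3 did not pass. The list and its falls include Nfkbib, an inhibitor of such a factor. The C/EBP factors Cebpb and Cebpd rose by 0.75 (adjusted p = 0.000563) and 0.40 (adjusted p = 0.0168). Creb1, the factor that binds the cAMP response element, fell by 0.48 (adjusted p = 0.0168), and Crem, a relative that binds the same element, by 0.39 (adjusted p = 0.0162). Rela, a subunit of NF-kB, fell by 0.55 (adjusted p = 0.00368), and the NF-kB inhibitor Nfkbib, with a mean CT of 30.6, by 0.66 (adjusted p = 0.0488). Of these 6, the call of Rela held under all 5 references. Creb1 changed by -0.31 without the CONV pair and did not pass. Crem did not pass without the GF or BIF pair, nor Nfkbib without the GF or CONV pair. The calls of Cebpd and Nfkbib were lost with plate as a random block, and Cebpd did not pass without the BIF pair (0.42).

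Of 5 genes of phosphatase subunits, catalytic or regulatory, 1 rose and 2 fell, and of 7 genes of second messengers and G proteins 2 rose. Ppp3ca, the catalytic subunit of calcineurin, rose by 0.60 (adjusted p = 0.000469), and the catalytic subunits of protein phosphatase 1 fell, Ppp1ca by 0.55 (adjusted p = 0.00581) and Ppp1cc by 0.29 (adjusted p = 0.0464). Rab3a, a GTPase of synaptic vesicles, rose by 0.52 (SE 0.0546, adjusted p = 0.000137), and the adenylyl cyclase Adcy8, with a mean CT of 30.3, by 0.70 (adjusted p = 0.0488). The rise of Adcy8 passed with the 4-gene reference alone, and was 0.89 without the CONV pair and 0.40 without the BIF pair, where it did not pass. The fall of Ppp1cc passed with the 4-gene reference and the pathway median. Of the 4 genes of extracellular proteolysis, Adam10, a protease that sheds membrane proteins, fell by 0.34 (adjusted p = 0.0488) and Plat, the tissue plasminogen activator, by 0.30 (adjusted p = 0.0480). Both falls passed with the 4-gene reference and the pathway median and under none of the other 3, and neither was kept without the GF or CONV pair or with plate as a random block. Among genes in no list, the cannabinoid receptor Cnr1 fell by 0.51 (adjusted p = 0.00306) under all 5 references, and the deacetylase Sirt1 fell by 0.48 (adjusted p = 0.00942), a call lost with the 5 references (-0.34) and without B2m (-0.37).

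Other cell types had few markers on the array. Ppp1r14a, a marker of oligodendrocytes, changed by -0.14 (adjusted p = 0.391) from P4 to P10, and its levels in the pools of P20 were -2.65 (GF), -2.82 (CONV) and -3.54 (BIF), above the range of -6.24 to -5.49 over the 6 earlier pools. Its pair changes from P4 to P10 were 0.17 (GF), -0.37 (CONV) and -0.22 (BIF). Igf1, a growth factor of microglia and neurons, fell by 0.35 (adjusted p = 0.0306), a call lost with the 5 references (-0.20), without B2m (-0.23), and without the GF or CONV pair. The part of changing cell numbers in the results was not tested.

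The levels of the same genes at P20, given without a test and read on another plate than the P10 pools, lay further in the direction of P10 for some and not for others. Arc stood at -2.01 (GF), -2.12 (CONV) and -1.81 (BIF) at P20, Synpo at -0.98, -1.13 and -1.09, and Camk2a at 3.36, 3.27 and 3.42. In each of these 3 genes the P20 pools lay above the 3 pools of P10. Egr4 stood at -5.32, -5.20 and -5.04, and no P20 pool exceeded the highest P10 pool. Among the genes that fell, Ncam1 stood at -0.88, -0.78 and -0.91 and Ephb2 at -3.22, -3.36 and -3.52, below their P10 pools, whereas Cdh2 at -3.93, -4.11 and -4.15 overlapped them.

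The size of a change varied between the treatment pairs, and these differences, picked after the values were seen, were not tested. Only the GF pair lay on 1 plate, and the P4 pools of CONV and BIF ran on different plates. Treatment and plate therefore cannot be told apart in these differences. Arc changed by 2.66 in the GF pair, 1.82 in the CONV pair and 1.94 in the BIF pair, and Egr1 by 1.64, 1.09 and 1.32. Ntf3 (-0.72, -1.24 and -0.35) and Creb1 (-0.31, -0.83 and -0.31) changed most in the CONV pair. Bdnf changed most in the BIF pair, with 1.11, 0.97 and 1.41. Cebpb, at 0.74, 0.70 and 0.81, and Crem, at -0.38, -0.41 and -0.38, were close in the 3 pairs.

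Whether the hippocampus differed from the other regions was tested on the age changes themselves, in 1 limma model of 18 pools of P4 and P10. In cortex and in cerebellum no P4 pool shared a plate with a P10 pool of its region, and the model had no term for plate. The P10 pools of each of these regions also shared their plate with a hippocampus pool of P4. Age and plate therefore cannot be told apart in either region, nor in the differences below. The change differed from that of the cortex in 2 of 83 genes (2.41%), and 16 genes had an unadjusted p under 0.05. This model takes pools of different regions as independent, although the protocol took the 3 regions from each brain. Whether the pools of a treatment and age held the same mice is not stated. With pools of the same treatment and age matched across regions, an alternative chosen after the data were seen, 22 genes differed from cortex (8 above and 14 below), Inhba and Fos among them. The number of genes that differ from cortex therefore depends on the model. Inhba, a subunit of activin, had levels of -6.76 (GF), -6.50 (CONV) and -6.31 (BIF) at P4 and -6.39, -6.46 and -6.36 at P10 in hippocampus, against -4.05, -3.88 and -4.30 and then -6.14, -5.59 and -5.82 in cortex. The cortex pools thus fell to near the level of the hippocampus, whose pools overlapped. The difference of the changes was 1.90 (SE 0.228, adjusted p = 0.000528). Fos changed by 0.58 in hippocampus and 1.90 in cortex, a difference of -1.32 (SE 0.276, adjusted p = 0.0266). The cortex pools of Fos went from -7.16, -6.91 and -6.39 to -4.78, -4.93 and -5.04 and did not overlap between ages. The difference for Fos was not called with Gapdh alone, with the 5 references, or when any 1 treatment pair was left out.

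Against the cerebellum the change differed in 53 of 83 genes (63.9%), with the hippocampus above in 11 and below in 42, and in 40 with the pools matched across regions (4 and 36). Grm4 changed by 0.23 in hippocampus and rose by 3.82 in cerebellum, a difference of -3.59 (SE 0.272, adjusted p = 2.91e-06). Its cerebellum pools went from -3.88, -4.27 and -4.11 to 0.31, -0.75 and -0.36. Nos1, the neuronal nitric oxide synthase, changed by -0.54 in hippocampus and by 2.55 in cerebellum, a difference of -3.09 (SE 0.360, adjusted p = 7.85e-05), and Ntf3 by -0.77 and 1.82, a difference of -2.59 (SE 0.477, adjusted p = 0.00136). In this model the hippocampus changes of Nos1 (adjusted p = 0.0997) and Ntf3 (adjusted p = 0.0823) did not pass. The pair changes of Nos1 in hippocampus were -1.03 (GF), 0.01 (CONV) and -0.60 (BIF). Egr4 changed by 1.75 and 4.12, a difference of -2.37 (SE 0.601, adjusted p = 0.00641), with P4 cerebellum levels of -10.2, -11.59 and -13.35, and the difference ranged from -3.06 to -1.46 with 1 pair left out. Ntf5 changed by 1.11 and -1.09, a difference of 2.20 (SE 0.715, adjusted p = 0.0194) that was not called without the CONV or BIF pair or with the pools matched across regions. Arc rose by 2.14 in hippocampus and 0.82 in cerebellum (difference 1.32, adjusted p = 0.0183), and Reln fell by 1.32 in hippocampus and rose by 0.77 in cerebellum (difference -2.09, adjusted p = 7.40e-05). Arc and Reln were picked for this comparison after their values were seen. With other references the hippocampus was above in 7 genes and below in 24 (Gapdh alone), 14 and 36 (5 genes), 14 and 34 (without B2m) and 14 and 27 (pathway median).

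**Figure D4:**
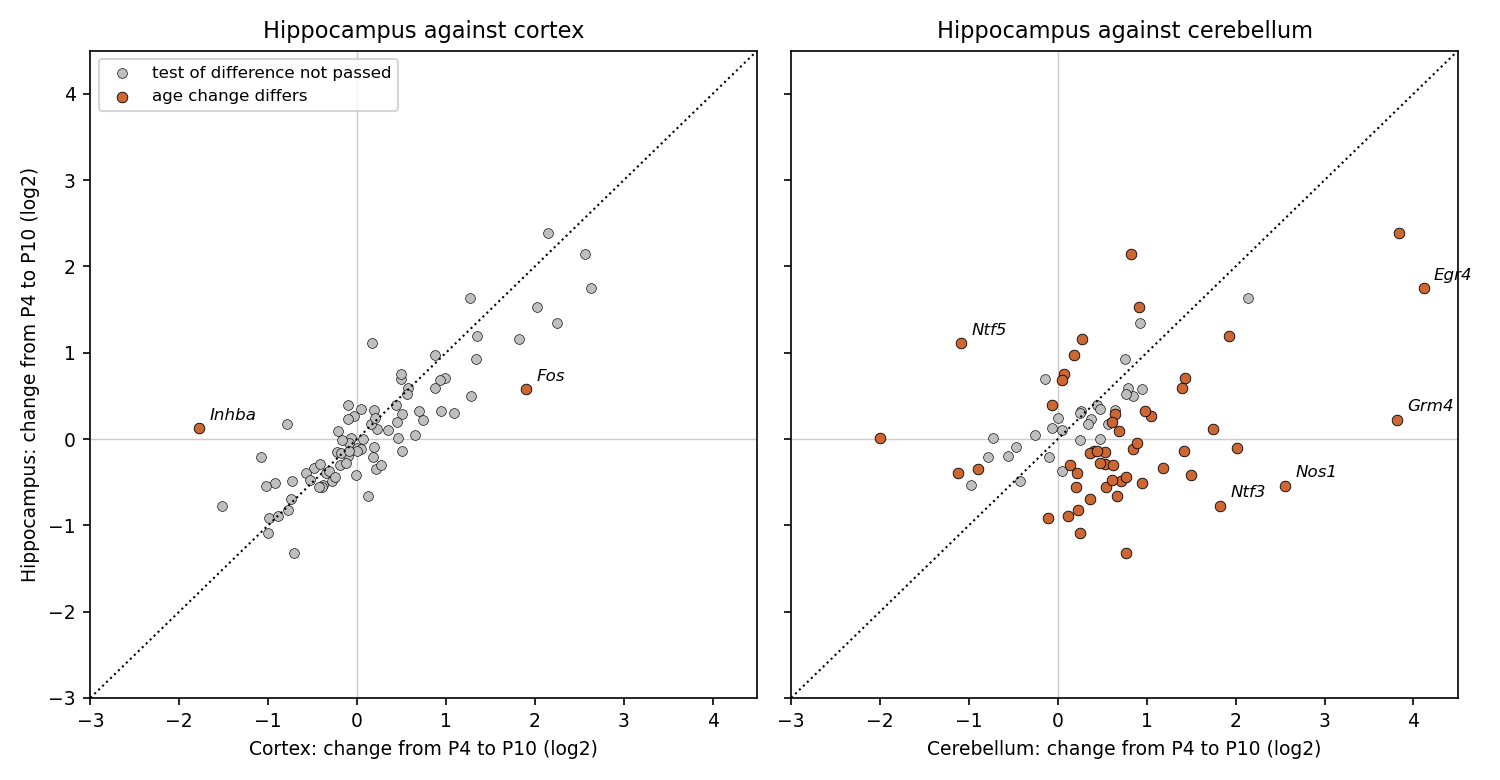
Change from P4 to P10 of each gene in hippocampus against that in cortex and in cerebellum, in log2 units, with genes whose changes differ in orange and equal change as the dotted line. In the 18-pool model Inhba and Fos are the 2 orange genes against cortex, and 53 genes are orange against cerebellum.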

How the data were processed

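The authors deposited raw threshold cycles (CT), 1 per well and pool, with the limit of detection set to 35 and no normalization. Wells carry no gene names. Genes were assigned by the array order and by the authors' fold changes of colonized over GF pools, listed in a supplementary table, within 0.04 log2. Of 84 pathway genes, 49 matched a single well. Another 13 fitted 2 to 8 wells and so rest on the order as well, among the genes named here Cebpb, Cnr1, Grin2b, Ncam1, Ntrk2, Ppp1cc, Rela, Sirt1 and Synpo, as does the reference B2m. By order alone 22 were placed, among them Akt1, Crem, Dlg4, Ephb2, Gria1, Gria3, Gria4, Igf1, Jun, Ppp1ca, Prkca and Reln. The references Actb, Gapdh, Gusb and Hsp90ab1 were also placed by order alone. Pick1 and Pim1, whose wells are not told apart, count in their lists and have no printed value. Levels were the mean CT of 4 reference genes minus the CT. They were fitted in R 4.3.3 with limma 3.58.1 (lmFit, eBayes with a trend), treatment as the pairing term and Benjamini-Hochberg adjustment over 83 genes. Genes at the limit in any of the 6 pools were not tested. The 18-pool model had age and treatment within region, and an alternative added later matched pools across regions. Named were up to 12 of the largest rises and falls past the test in every pair with a mean CT of 30 or below, the members of the AMPA, NMDA, immediate early and neurotrophin lists, members of the other lists past the test, Tnf, the markers, a gene whose GF pair moved against both other pairs by 1.5-fold or more, and up to 5 genes per region comparison. Cnr1 and Sirt1 are among the largest falls. Some genes that this rule takes count in every total and are not reported by name here. The members and lists were chosen with earlier results of these data known. Alternatives were tried for the reference, pairing term, variance trend, CT filter, CTs at 35, shared spread, plate, fold threshold and each pair left out. The calculations were tested on simulated data.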

Additional observations from a re-analysis of the deposited data

Results flagged for a closer look

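The change from P4 to P10 in hippocampus differed from that in cortex for Inhba (difference 1.90) and Fos (-1.32), and from that in cerebellum for Grm4 (-3.59), Nos1 (-3.09), Ntf3 (-2.59), Egr4 (-2.37) and Ntf5 (2.20), each by the test of the difference in the 18-pool model. The calls of Fos and Ntf5 were lost under alternatives given above. Age and plate cannot be told apart in the comparisons between regions. Plcg1, a phospholipase of growth factor signalling, changed by -1.03 in the GF pair and by 0.87 (CONV) and 0.68 (BIF) in the colonized pairs. Its levels were 0.07 (GF), -1.43 (CONV) and -1.49 (BIF) at P4 and -0.97, -0.56 and -0.81 at P10, and the difference between treatments was not tested. The P4 pools of the treatments ran on different plates, so treatment and plate cannot be told apart at P4.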

How the results depend on the processing

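Of the 45 named genes that passed the test, 16 passed it in the same direction under every alternative with a test, namely Grin2c, Arc, Egr4, Camk2a, Egr1, Grin2a, Bdnf, Synpo, Grin1, Reln, Akt1, Cdh2, Ephb2, Ncam1, Rela and Cnr1. The 26 rises became 10 with Gapdh alone, 16 with the pathway median and 16 at 1.5-fold or more. The 24 falls became 9 with the 5 references, 11 without B2m and 8 at 1.5-fold or more, and 14 to 19 with a pair left out (14 without the GF pair), where rises numbered 22. The 2 differences from cortex became 1 with Gapdh alone, 1 with the 5 references, 6 with the pathway median (Egr1, Egr3, Fos, Gria3, Igf1 and Inhba) 1 to 3 with a pair left out (Inhba, Ngfr and Plcg1 without the GF pair, Inhba alone without either other pair) and 22 with pools matched across regions, which was chosen after the data were seen. The 53 differences from cerebellum became 31 with Gapdh alone, 50 with the 5 references, 48 without B2m, 41 with the pathway median, 40 with pools matched across regions and 36 to 46 with a pair left out. Apart from the counts at the stricter threshold, the cause was not tested. Without the treatment pairing as a block, 22 genes rose and 24 fell, and correlations across genes between the deviations of paired pools were -0.10 (GF), 0.07 (CONV) and 0.01 (BIF). Rises and falls numbered 22 and 18 with the spread of 18 pools, 21 and 19 with plate as a random block, 26 and 21 without the variance trend, 24 and 22 among genes with a mean CT of 30 or below, and 26 and 25 with CTs at 35 kept. The 16 genes at 1.5-fold or more in each pair numbered 15 to 18. Of the 58 named changes, 35 kept their side of the threshold and direction with Gapdh alone, 40 with the 5 references, 43 without B2m and 44 with the pathway median. Signs turned for Grin2b (0.10 with 5 references, 0.07 without B2m, 0.13 in the GF pair alone), Ntrk2 (-0.087 with Gapdh alone, -0.12 with the pathway median), Inhba (-0.06 with Gapdh alone, -0.093 with the pathway median), Gabra5 (-0.17 with Gapdh alone, -0.21 with the pathway median, -0.083 in the GF pair alone), Plcg1 (-0.01 with Gapdh alone, -0.043 with the pathway median, -1.03 in the GF pair alone) and Ppp1r14a (0.0047 with 5 references, 0.17 in the GF pair alone). With a pair left out, Grin2b ranged from -0.13 to 0.0525, Ngfr from -0.48 to 0.13, Inhba from -0.005 to 0.21, Gabra5 from -0.068 to 0.055 and Plcg1 from -0.18 to 0.78. None of these 7 genes had passed with the 4-gene reference and all pairs, while Ntrk2 passed as a rise with the 5 references, Ppp1r14a as a fall with the pathway median and Plcg1 as a rise without the GF pair. There is 1 deposited CT per gene and pool, and the number of template molecules behind it is unknown.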
